A study of Oryza sativa Indica Group with 36 samples.

Results

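Besides the CCT-domain proteins of the OsPRR37 family, rice has genes of other protein families that hold flowering back in long days. The 5 genes described here, of the 35477 loci in the deposited files, were chosen by identifier as such repressors: DTH8 (OS08G0174500), OsMADS56 (OS10G0536100), Hd6 (OS03G0762000), Hd16 (OS03G0793500) and Se14 (OS03G0151300). They were read in 18 leaf RNA libraries of OE, which is line OsPRR37-OE5 overexpressing OsPRR37, and in 18 of GL, the indica cultivar Guangluai4 without the transgene. Both groups were 45-day seedlings under natural long days, and the uppermost leaves that were fully expanded were taken every 4 h over 1 day, at 6 hours from 4:00 in the early morning to 0:00 at night, with 3 biological repeats per genotype and hour. OE stands for 1 transgenic line, so effects of OsPRR37 and other differences between this line and GL cannot be told apart. The sources used here give neither the promoter of the transgene nor which alleles of the 5 genes GL carries.

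DTH8, also called Ghd8 or LHD1, is a B subunit of the trimeric transcription factor NF-Y and lowers expression of the flowering inducer Ehd1 in long days. OsMADS56 is a MADS-box factor of the SOC1-like group that delays flowering in long days and is set against its relative OsMADS50, a promoter of flowering. Hd6 is a catalytic alpha subunit of casein kinase 2, Hd16 is a casein kinase I that phosphorylates long-day repressor proteins, and Se14 is a JmjC-domain demethylase that removes activating histone H3 lysine methylation from a florigen gene. These proteins act on transcription, on other proteins or on chromatin, and RNA levels do not measure that activity.

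The libraries held 8065894 to 15769659 counts. OsPRR37 itself had 800 to 1726 CPM (counts over library size, scaled by edgeR's TMM factors) over the OE libraries and 1.49 to 505 CPM over the GL libraries, with no overlap. A label conflicts with the others: replicate 3 of GL at 0:00 carries the transgenic line's name as its genotype, but by its title and the design text it belongs to GL, where it was kept; leaving it out changed no call of the 5 genes in the average, by hour, in the interaction or over the day. As for leaf tissue, the small Rubisco subunit gene RbcS was high in all 36 libraries, with 4573 to 15150 CPM in OE and 5105 to 13450 CPM in GL. The meristem gene OSH1 and the root gene RCc3 were listed at 0 in all 36. These marker CPM, and those that follow in this paragraph, are over library totals without TMM factors. Lhcb, another leaf marker, varied widely, from 15.2 to 2396 CPM in OE and from 28.8 to 2092 CPM in GL. A further leaf marker, Rubisco activase, was listed at 0 in 4 OE and 5 GL libraries. It reached 22620 CPM in OE and 29400 CPM in GL, so an exact 0 in these files need not mean that no transcript was present.

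DTH8 lies on chromosome 8 (4330978 to 4334912, minus strand; IRGSP-1.0, as deposited, like all positions here). OsMADS56 lies on chromosome 10 (20862892 to 20873548, plus strand). The other genes share chromosome 3, with Se14 at 2833144 to 2841689 (plus strand), Hd6 at 31508708 to 31514468 (minus strand) and Hd16 at 32999379 to 33006861 (plus strand). Hd16 is overlapped on the other strand by OS03G0793550, which had 0 counts over all libraries. The library kit does not mark strand, so reads of such a pair could not have been separated.

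All 5 genes passed the filter on low counts, and their counts per library ran from 68 to 482 for DTH8, 1942 to 4481 for OsMADS56, 465 to 1251 for Hd6, 459 to 1436 for Hd16 and 292 to 1040 for Se14. DTH8 therefore has the coarsest counting of the set. OsMADS56 was the most abundant of the 5 per length of transcript, with a median of 351 FPKM in OE and 360 FPKM in GL (fragment number over transcript length and library size, as computed by the authors; n = 18 libraries each). Hd6 followed with medians of 37.1 FPKM in OE and 36.7 FPKM in GL, and Hd16 with 23.7 FPKM in OE and 23.1 FPKM in GL. In neither genotype did the FPKM libraries of OsMADS56, Hd6 and Hd16 overlap one another.

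DTH8 and Se14 stood at the low end in an order that depended on the scale. In FPKM, DTH8 had medians of 14.5 in OE and 15.8 in GL, and Se14 had 11.4 in OE and 12.9 in GL. In TMM-scaled CPM per kilobase of the deposited gene length, DTH8 had 6.28 in OE and 6.79 in GL, below Se14 with 10.3 in OE and 10.9 in GL. The deposited FPKM of DTH8 and OsMADS56 were 1.98 and 1.86 times as high per count and kilobase as in the median gene, against 0.993 for Se14, so that an order between genes on the FPKM scale carries this difference. OsMADS56 stayed first on the CPM per kilobase scale, with 161 in OE and 163 in GL.

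**Figure D1:**
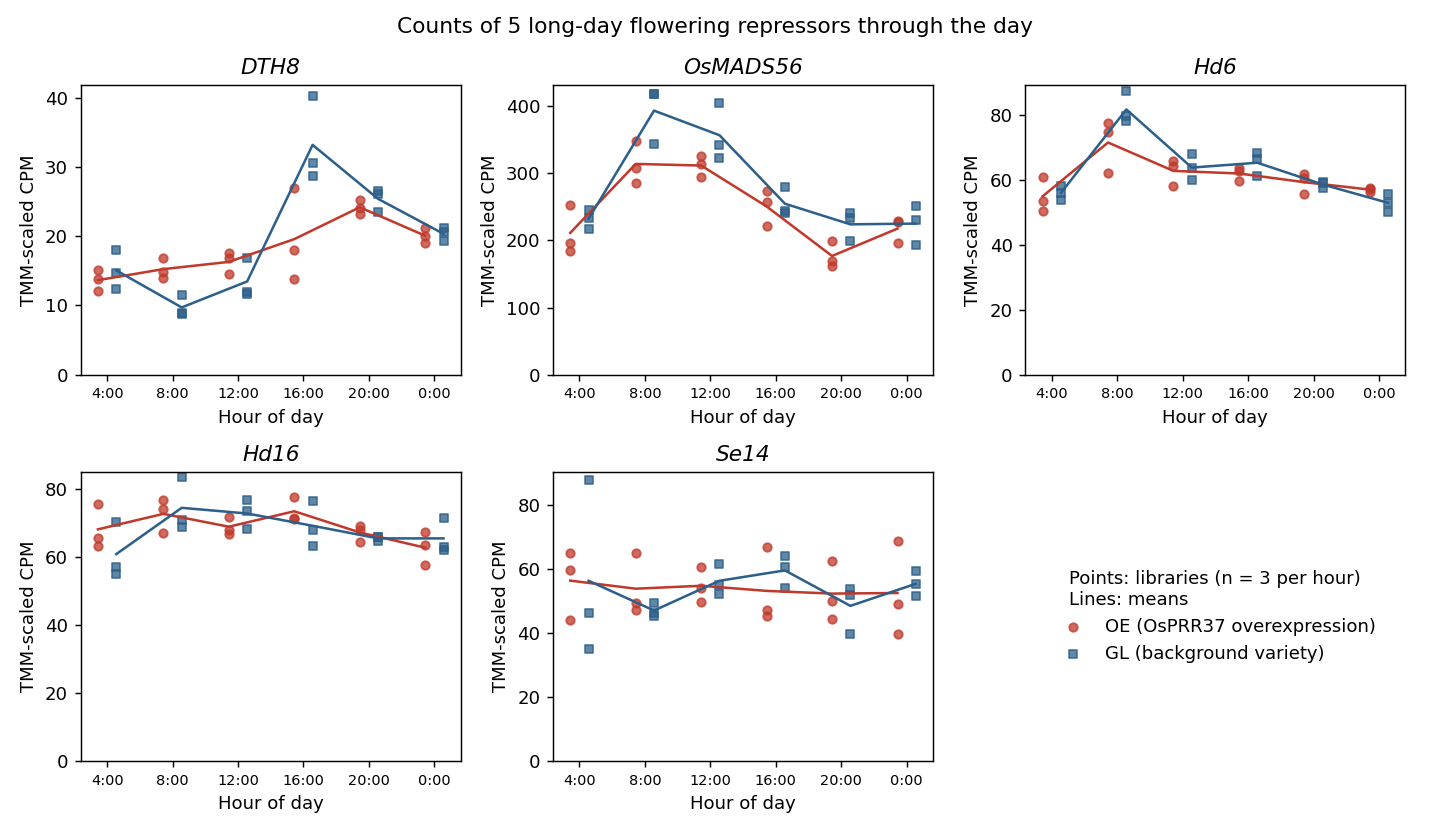
TMM-scaled CPM of each gene (vertical axis, from 0) at the 6 hours of the day (horizontal axis) in OE (circles) and GL (squares); points are libraries, 3 per genotype and hour, and lines join the means. At 16:00 the OE libraries of DTH8 lie between 13.8 and 27.02 CPM, below the GL libraries at 28.7 to 40.3 CPM. The OE and GL libraries of Hd16 and Se14 overlap at each hour.

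Averaged over the 6 hours, OE minus GL asks whether lasting OsPRR37 expression goes with another level of these repressors. Of the 5 genes 1, OsMADS56, was called lower in OE and the others were not called (adjusted p under 0.05, quasi-likelihood test of edgeR, Benjamini-Hochberg adjusted over all 21772 tested genes). Of all tested genes 26% were called in this contrast, 14% as higher and 12% as lower in OE, so a share of 1 in 5 is near the background. The log2 differences were -0.01 for DTH8 (95% interval -0.17 to 0.14, adjusted p = 0.947), -0.03 for Hd6 (-0.11 to 0.04, adjusted p = 0.566), 0.02 for Hd16 (-0.07 to 0.11, adjusted p = 0.795) and 0.0029 for Se14 (-0.19 to 0.20, adjusted p = 0.998). In this model, which takes libraries that share a replicate number as independent, the intervals of the 4 uncalled genes lay within 0.20 log2 units either way. For Se14, the mean log2 CPM by replicate number had an SD of 0.251 in OE and 0.134 in GL (n = 3 each). Its interval may therefore be too narrow. The median absolute log2 difference over all tested genes was 0.178. In bulk leaf, fewer cells of a type and less RNA per cell cannot be told apart.

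At 1 hour at a time, 1 of 30 comparisons was called, DTH8 at 16:00, where 7.91% of all genes were called, 3.16% as lower in OE. At the other hours 4.48% (4:00), 3.31% (8:00), 2.02% (12:00), 2.51% (20:00) and 2.33% (0:00) of all genes were called. The OE and GL libraries overlapped in 26 of the 30 comparisons. They stood apart for DTH8 at 8:00 and 16:00 and for Hd6 at 8:00 and 0:00; of all genes the libraries stood apart in 17.2% (4:00), 21.8% (8:00), 16.4% (12:00), 24.2% (16:00), 21.6% (20:00) and 17.9% (0:00).

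**Figure D2:**
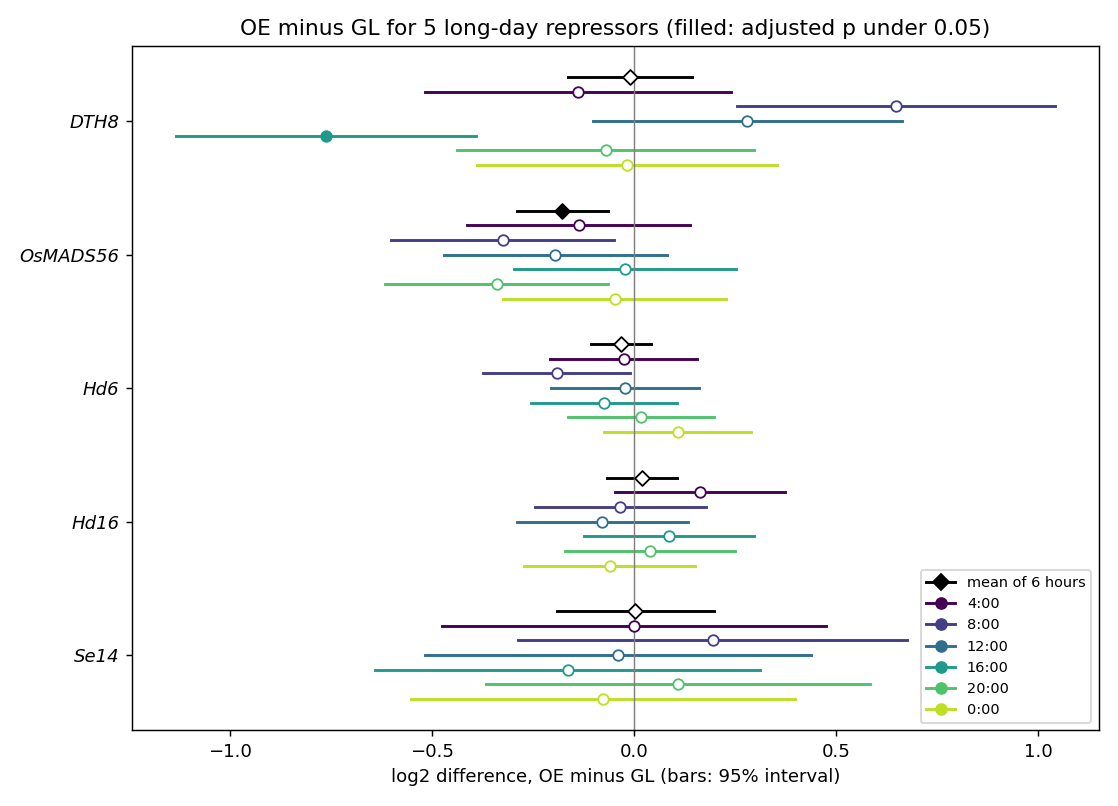
Log2 difference of OE minus GL (horizontal axis) for each gene, with 95% intervals; diamonds are the mean of the 6 hours, circles the single hours from 4:00 at the top to 0:00 at the bottom, and filled symbols have an adjusted p under 0.05. The filled symbols are DTH8 at 16:00 (-0.76) and OsMADS56 in the mean (-0.18).

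DTH8, the NF-Y subunit, was lower in OE at 16:00, and its libraries lay the other way round at 8:00, so that the averaged difference was near 0. At 8:00 it had 13.9, 14.9 and 16.9 CPM in OE (replicates 1 to 3) against 8.74, 8.88 and 11.6 CPM in GL. Each OE library was above each GL library at that hour, but the log2 difference of 0.65 (SE 0.19) missed the threshold with an adjusted p of 0.0587. Over the other settings with all libraries the adjusted p ran from 0.0376 to 0.181: it passed with DESeq2 (0.0376), with replicate number as a fixed term (0.0423) and with limma on log2(FPKM + 0.1) (0.0481). It missed with limma on log2(FPKM + 1) (0.0549), RLE scaling (0.0564), no filter on low counts (0.0861) and voom without and with a random replicate block (0.138 and 0.181).

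At 16:00 DTH8 had 27.02, 13.8 and 18.0 CPM in OE against 40.3, 30.6 and 28.7 CPM in GL. Here every OE library was below every GL library, and OE replicate 1, the highest of its group, came close to the lowest GL library. The log2 difference was -0.76 (SE 0.18, 95% interval -1.13 to -0.39; adjusted p = 0.00866). This call was lost when OE replicate 2, OE replicate 3 or GL replicate 1 at 16:00 was left out, with log2 differences from -0.71 to -0.56 and adjusted p values of 0.0545 to 0.0864. It was also lost without all libraries of replicate number 2 (log2 -0.63, adjusted p = 0.306) or 3 (log2 -0.81, adjusted p = 0.192).

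The remaining hours of DTH8 showed no separation. At 4:00 it had 13.8, 15.1 and 12.1 CPM in OE against 12.4, 18.1 and 14.7 CPM in GL, and at 12:00 it had 14.5, 16.8 and 17.6 CPM in OE against 16.8, 11.9 and 11.7 CPM in GL. At 20:00 the values were 25.3, 24.1 and 23.3 CPM in OE and 26.2, 23.6 and 26.5 CPM in GL, and at 0:00 they were 20.0, 21.2 and 19.01 CPM in OE and 21.2, 19.3 and 20.6 CPM in GL. The libraries overlapped at these 4 hours, with log2 differences from -0.14 (4:00) to 0.28 (12:00) and adjusted p values of 0.583 to 0.997.

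The genotype by hour interaction tests directly whether OE minus GL changed over the day. DTH8 was called (adjusted p = 0.0313), its hourly differences spanning 1.41 log2 units, while the other 4 members had adjusted p values of 0.853 to 1. Of all tested genes 1.88% were called in this test. The DTH8 interaction was lost without replicate number 2 or 3, when 7 and 6 of all genes were left called against 409 with all libraries, and in 7 of 36 fits with a single library removed. The span was 1.22 and 1.53 log2 units without numbers 2 and 3, and 1.21 to 1.47 in those 7 fits. Those 7 libraries all belonged to 8:00 or 16:00: OE replicate 3 and GL replicates 1 and 2 at 8:00, and OE replicates 2 and 3 and GL replicates 1 and 2 at 16:00.

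Markers of other cells and a gene listed as a reference were read in the same libraries. The secondary wall list of 3 cellulose synthase genes, of which 0 had a count of 0 in any library, summed to 27.2, 5.30 and 5.73 CPM in OE and 7.50, 2.79 and 3.51 CPM in GL at 16:00, and to 18.99, 5.17 and 11.8 CPM in OE and 14.8, 4.78 and 4.62 CPM in GL at 8:00. Each of the 3 genes had overlapping libraries at both hours. OsActin1, the gene listed as a reference, had 42.6, 62.7 and 58.5 CPM in OE at 16:00, above 34.1, 34.7 and 35.02 CPM in GL. Whether they bear on the DTH8 result was not tested.

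Within each genotype DTH8 changed over the day, in OE (adjusted p = 0.00221) and in GL (adjusted p = 1.4e-08), as did 68.6% of all genes in OE and 69.7% in GL. The change in OE was no longer called without replicate number 3 (span 0.77 log2 units, adjusted p = 0.0812). With all libraries the DTH8 means spanned 0.83 log2 units in OE and 1.77 in GL; 24.6% of genes in OE and 58.1% in GL had a smaller span. In OE the highest mean was 24.2 ± 1.03 CPM at 20:00, apart from the next hour, and the other hours overlapped their neighbours in rank down to 13.7 ± 1.48 CPM at 4:00 (SD, n = 3). In GL the level fell between 4:00 and 8:00 (log2 -0.63, SE 0.19; adjusted p = 0.0105), to 9.72 ± 1.59 CPM, and rose between 12:00 and 16:00 (log2 1.30, SE 0.19; adjusted p = 2.5e-06), to 33.2 ± 6.21 CPM (SD, n = 3). In OE neither step was called, with log2 values of 0.16 and 0.26. Of all genes 37.2% were called at the earlier of these steps in GL and 31.9% at the later one.

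A cosine with a 24 h period placed the DTH8 peak at hour 19.4 in OE and 19.1 in GL, with fitted ranges of 0.73 log2 units in OE and 1.54 in GL. The rhythm was called in both, as it was for 70.4% of all genes in OE and 71.8% in GL. In OE it was no longer called without replicate number 1 (range 0.58 log2 units, adjusted p = 0.0533). Fitted within each series, meaning the 6 libraries of a genotype that share a replicate number, the range was 1.09, 0.591 and 0.593 log2 units in OE and 1.89, 1.42 and 1.39 in GL. All 3 OE series lay below all 3 GL series (two-sided exact permutation test, p = 0.1, the smallest that 3 against 3 allows). Of all genes 12.4% had a range lower in each OE series than in each GL series. The harmonic model's test of a rhythm difference in edgeR called 0 of the 5 members (DTH8 adjusted p = 0.501) and 0.0919% of all genes. At an unadjusted p under 0.05 that test gave 1 member, DTH8, and 6.76% of all genes. The difference between 16:00 and 8:00, chosen for description after these values were seen, was 0.95, -0.11 and 0.09 log2 units in the OE series and 2.20, 1.78 and 1.31 in the GL series.

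**Figure D3:**
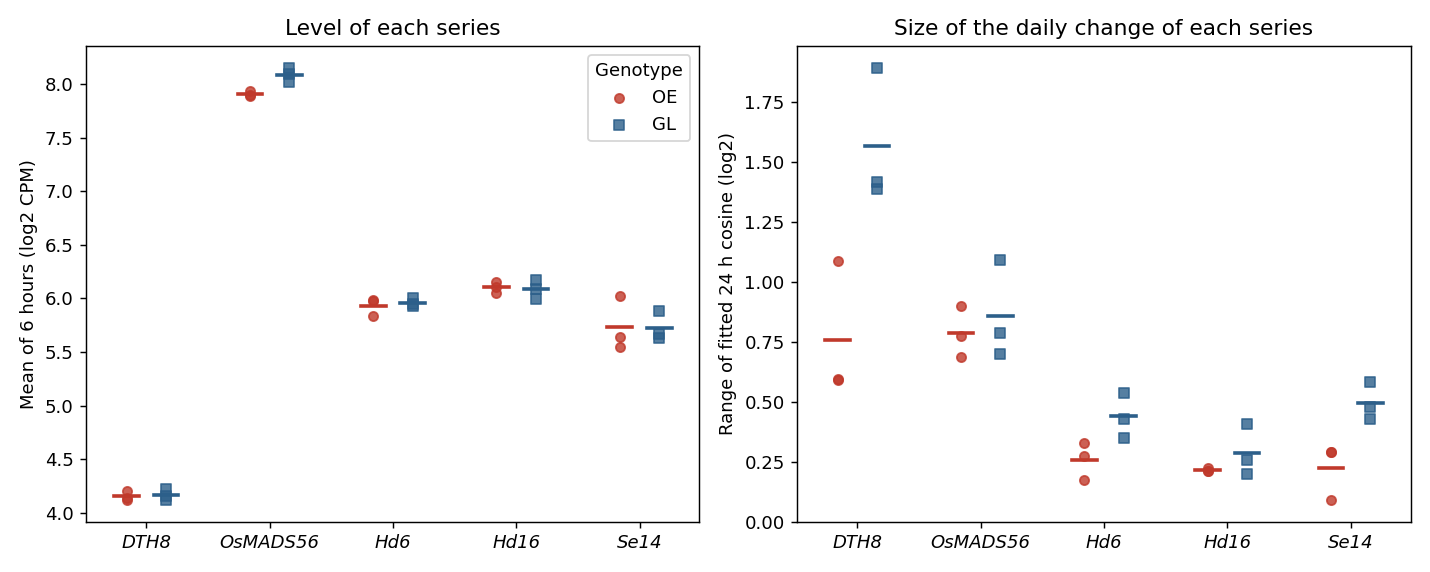
Mean log2 CPM over the 6 hours (left) and peak-to-trough range of the fitted 24 h cosine (right, log2 units) for each series of 6 libraries that share a genotype and a replicate number; points are the 3 OE series (circles) and 3 GL series (squares), and bars are their means. The OsMADS56 means lie lower in all 3 OE series, and the DTH8 ranges are 0.591 to 1.09 in OE against 1.39 to 1.89 in GL.

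OsMADS56, the SOC1-like MADS-box repressor, was lower in OE on average but by a small amount. It averaged 247 CPM in OE and 281 CPM in GL over the 18 libraries of each, and the averaged log2 difference was -0.18 (SE 0.05, 95% interval -0.29 to -0.07; adjusted p = 0.0163), 0.884-fold. The series means were 7.89, 7.94 and 7.90 log2 CPM in OE and 8.09, 8.02 and 8.16 in GL. The OE series all lay below the GL series (two-sided exact permutation test, p = 0.1, the smallest possible). The series means of 25.5% of all genes stood apart in one direction or the other. The call was lost without replicate number 3 (log2 -0.14, adjusted p = 0.297) and in voom with each series as a random block (adjusted p = 0.169). It held in the fits without replicate number 1 or 2 and in 36 fits with a single library removed.

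By hour, OsMADS56 had its highest levels in the morning and at noon on TMM-scaled CPM, and likewise in the authors' FPKM. Over unscaled library totals the highest mean lay at 16:00 in OE and at 20:00 in GL. At 4:00 OsMADS56 had 184, 253 and 197 CPM in OE against 217, 234 and 246 CPM in GL. At 8:00 it had 349, 285 and 308 CPM in OE against 419, 344 and 418 CPM in GL, the OE replicate 1 reaching just into the GL values. At 12:00 the values were 326, 295 and 314 CPM in OE and 405, 342 and 323 CPM in GL.

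In the second part of the day the TMM-scaled level was lower in both genotypes. At 16:00 OsMADS56 had 221, 274 and 257 CPM in OE against 241, 244 and 279 CPM in GL. At 20:00 it had 200, 162 and 169 CPM in OE against 241, 198 and 233 CPM in GL, and at 0:00 it had 196, 229 and 228 CPM in OE against 194, 230 and 251 CPM in GL. The libraries of OE and GL overlapped at each hour, the OE mean was below the GL mean at all 6, and the hourly log2 differences ran from -0.34 (20:00) to -0.02 (16:00) with adjusted p values of 0.214 to 0.955.

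On TMM-scaled counts the means of OsMADS56 spanned 0.83 log2 units in OE (adjusted p = 1.0e-05) and 0.81 in GL (adjusted p = 1.3e-06). The fitted peak on that scale fell at hour 10.3 in OE and 10.1 in GL. The level rose between 4:00 and 8:00 in OE (log2 0.57, SE 0.14; adjusted p = 0.00123) and in GL (log2 0.76, SE 0.14; adjusted p = 5.2e-05). It fell in OE between 16:00 and 20:00 (log2 -0.50, SE 0.13; adjusted p = 0.00572) and in GL between 12:00 and 16:00 (log2 -0.49, SE 0.13; adjusted p = 0.00587). OE at the noon step (log2 -0.31) and GL at the evening step (log2 -0.19) were not called. At the 4:00 to 8:00 step 37.4% of all genes were called in OE, and at the 16:00 to 20:00 step 26.4%. The fitted range by series was 0.901, 0.687 and 0.775 log2 units in OE and 1.09, 0.786 and 0.700 in GL, which overlap.

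OsMADS50 (OS03G0122600), the promoter of flowering paired with OsMADS56, was called higher in OE in the averaged contrast (log2 0.71, SE 0.08, edgeR adjusted p = 7.5e-08), as were 14% of all genes. On TMM-scaled CPM every OE library was above every GL library at each of the 6 hours, at 20:00 by 49.4 against 49.2 CPM. In FPKM the libraries overlapped at 4:00 and 20:00. At single hours the libraries of 16.4% (12:00) to 24.2% (16:00) of all genes stood apart. The ratio of OsMADS50 to OsMADS56, formed within each library from FPKM, had series means of -2.29, -2.32 and -2.34 on the log2 scale in OE and -2.85, -3.09 and -3.33 in GL. The balance was thus 1.71-fold further toward OsMADS50 in OE (1.88-fold on CPM), with no overlap of the series (two-sided exact permutation test, p = 0.1, the smallest possible). By library, the FPKM ratios of OE and GL overlapped at 4:00. Series means of 25.5% of all single genes stood apart, and a share over gene pairs was not computed. In both genotypes OsMADS56 had the higher FPKM in all libraries. The ratio was lowest at 12:00, with log2 values of -3.01 ± 0.058 in OE and -4.26 ± 0.141 in GL, and highest at 8:00 in OE (-1.71 ± 0.127) and at 4:00 in GL (-2.17 ± 0.186; SD, n = 3). On the log2(FPKM + 1) scale, OE minus GL of the series means was 0.58 for OsMADS50 and -0.18 for OsMADS56.

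**Figure D4:**
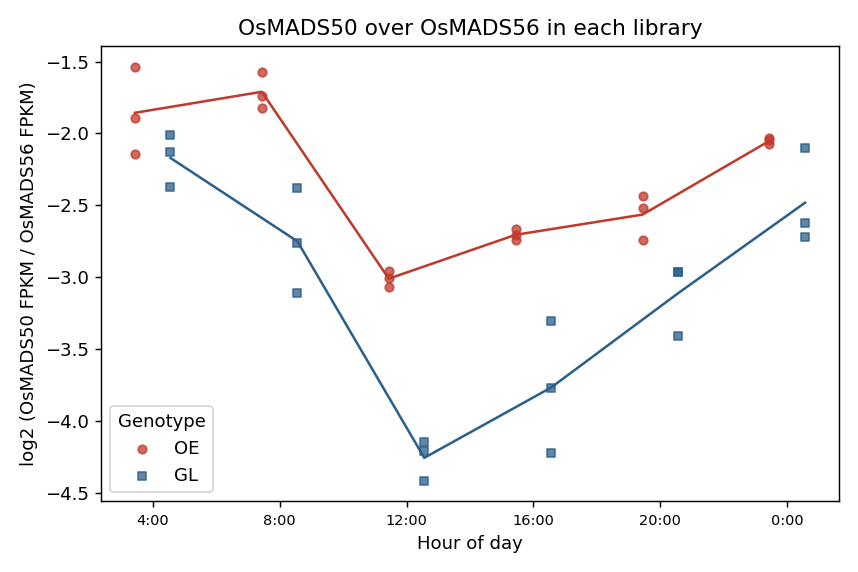
Log2 ratio of OsMADS50 FPKM to OsMADS56 FPKM (vertical axis) in each library at the 6 hours (horizontal axis) for OE (circles) and GL (squares), with lines through the means. All values are below 0, and at 12:00 the OE libraries lie between -3.07 and -2.95, above the GL libraries at -4.42 to -4.15.

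On TMM-scaled CPM, Hd6, the casein kinase 2 alpha subunit, had its highest mean at 8:00 in both genotypes. It then had 62.2, 77.3 and 74.8 CPM in OE against 79.5, 87.3 and 78.0 CPM in GL. In the authors' FPKM the highest mean also fell at 8:00. Over unscaled library totals the highest mean fell at 20:00 in both genotypes. At 0:00 Hd6 had 56.1, 57.1 and 57.6 CPM in OE against 55.5, 53.0 and 50.1 CPM in GL. The OE libraries were thus below GL at 8:00 and above it at 0:00, each time without overlap, but log2 differences of -0.19 (adjusted p = 0.282) and 0.11 (adjusted p = 0.732) were not called.

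At the other 4 hours the Hd6 libraries of the genotypes overlapped. It averaged 54.9 ± 5.27 CPM in OE and 55.9 ± 2.16 CPM in GL at 4:00, and 62.7 ± 3.98 CPM in OE and 63.7 ± 4.02 CPM in GL at 12:00. At 16:00 the means were 61.9 ± 2.17 CPM in OE and 65.2 ± 3.57 CPM in GL, and at 20:00 they were 59.2 ± 3.14 CPM in OE and 58.5 ± 1.01 CPM in GL (SD, n = 3 each).

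Hd6 changed over the day in OE (0.38 log2 units, adjusted p = 0.00612) and in GL (0.63 log2 units, adjusted p = 4.8e-06), and 4.22% of genes in OE and 13.6% in GL had a smaller span. It rose between 4:00 and 8:00 in OE (log2 0.38, SE 0.09; adjusted p = 0.00109) and in GL (log2 0.55, SE 0.09; adjusted p = 1.6e-05), and fell between 8:00 and 12:00 in GL (log2 -0.36, SE 0.09; adjusted p = 0.00207), a step at which 36.2% of genes were called. The same step in OE was -0.19 and not called. The call of the change over the day in OE was lost when OE replicate 2 or 3 at 8:00 was left out (adjusted p = 0.115 and 0.0894). It was also lost without all libraries of replicate number 2 (0.28 log2 units, adjusted p = 0.456) or 3 (0.41 log2 units, adjusted p = 0.175). A cosine fitted to TMM-scaled counts was called in GL (peak at hour 10.6, range 0.45, adjusted p = 0.00132) but not in OE (range 0.25, adjusted p = 0.0966). The test of the difference in rhythm had an adjusted p of 0.999. By series the range was 0.172, 0.328 and 0.272 log2 units in OE and 0.351, 0.537 and 0.430 in GL, without overlap (two-sided exact permutation test, p = 0.1, the smallest possible). A range lower in each OE series than in each GL series was found in 12.4% of all genes.

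Hd16, the casein kinase I, was called in no comparison of OE with GL. It ran from 57.6 through a median of 68.1 to 77.7 CPM over the OE libraries and from 55.3 through 68.2 to 83.8 CPM over the GL libraries. At 4:00 it averaged 68.3 ± 6.59 CPM in OE and 61.0 ± 8.32 CPM in GL, at 8:00 72.8 ± 4.97 CPM in OE and 74.6 ± 8.03 CPM in GL, and at 12:00 69.0 ± 2.62 CPM in OE and 72.9 ± 4.29 CPM in GL. At 16:00 the means were 73.6 ± 3.56 CPM in OE and 69.3 ± 6.73 CPM in GL, at 20:00 67.3 ± 2.39 CPM in OE and 65.6 ± 0.743 CPM in GL, and at 0:00 62.9 ± 4.93 CPM in OE and 65.6 ± 5.20 CPM in GL (SD, n = 3 each). The genotypes overlapped at each hour.

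The change of Hd16 over the day was called neither in OE (0.23 log2 units, adjusted p = 0.349) nor in GL (0.29 log2 units, adjusted p = 0.111), and 0.712% of genes in OE and 1.58% in GL had a smaller span. In rank all its hours overlapped the next hour in both genotypes. A rise between 4:00 and 8:00 was called in GL (log2 0.29, SE 0.10; adjusted p = 0.0277), where Hd16 had 83.8, 69.0 and 71.0 CPM at 8:00 and 70.5, 55.3 and 57.1 CPM at 4:00. In OE that step was 0.09. Over unscaled library totals, Hd16 in GL was lower at 8:00 than at 4:00 in each replicate. The direction of that step therefore depended on the scaling. The change over the day in GL was called without GL replicate 1 at 4:00, with DESeq2 (adjusted p = 0.0325) and with limma on FPKM. It was also called in edgeR without all libraries of replicate number 1 (adjusted p = 0.0421). The cosine of Hd16 in GL was then called as well (range 0.307, adjusted p = 0.0358).

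Se14, the JmjC demethylase, was called in no comparison of genotypes or hours. It ran from 39.8 through a median of 49.9 to 68.7 CPM in OE and from 35.2 through 53.1 to 87.8 CPM in GL. The means of the hours spanned 0.11 log2 units in OE (adjusted p = 0.998), and 0.023% of genes had a smaller span; in GL they spanned 0.34 (adjusted p = 0.689), with 2.73% of genes below. The group with the widest range was GL at 4:00, with 87.8, 35.2 and 46.2 CPM, beside 65.2, 59.9 and 44.2 CPM in OE at that hour. The means of the other hours lay between 52.4 ± 9.26 CPM (20:00) and 54.8 ± 5.47 CPM (12:00) in OE and between 47.1 ± 2.12 CPM (8:00) and 59.6 ± 5.03 CPM (16:00) in GL (SD, n = 3), and the genotypes overlapped at each hour.

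Se14 was often highest in replicate 1. That replicate was the highest of the 3 at 6 of 6 hours in OE and at 4 of 6 in GL, above the mean of replicates 2 and 3 by 0.43 log2 units in OE and 0.23 in GL. The median absolute value of that difference over all genes was 0.284 in OE and 0.194 in GL. The summed secondary wall list ran from 18.6 to 27.2 CPM in the OE replicate 1 libraries, above 5.17 to 13.9 and 1.54 to 11.8 CPM in OE replicates 2 and 3. In GL it ran from 7.50 to 18.6 CPM in replicate 1, against 1.91 to 4.78 and 3.00 to 17.2 CPM in replicates 2 and 3. The part of this in the Se14 values was not tested. Without replicate number 1, the change of Se14 over the day in GL was called (0.60 log2 units, adjusted p = 0.0188). By series its fitted range was 0.0900, 0.290 and 0.291 log2 units in OE and 0.479, 0.582 and 0.429 in GL, without overlap (two-sided exact permutation test, p = 0.1, the smallest possible). Of all genes 12.4% had a range lower in each OE series than in each GL series. The 3 GL series peaked at hours 2.92, 17.1 and 13.3, and the cosine through all GL libraries had a range of 0.077. Without replicate number 1 the cosine in GL had a range of 0.458 and was called (edgeR, adjusted p = 0.0429).

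Over the steps between consecutive hours, 10 of 60 comparisons were called, 3 of 30 in OE and 7 of 30 in GL, and 6 of the 10 lay between 4:00 and 8:00. At that step OsMADS56 and Hd6 rose in both genotypes, and in GL Hd16 rose and DTH8 fell. The step tests used TMM scaling alone. Over unscaled library totals, Hd16 in GL was lower at 8:00 than at 4:00 in each replicate. Hd6 in both genotypes and OsMADS56 in OE then rose in some replicates and fell in others. In GL, OsMADS56 rose and DTH8 fell in each replicate on that scale too. In the authors' FPKM the mean of Hd16 in GL rose from 21.1 to 25.6. The FPKM means of Hd6 and OsMADS56 rose in both genotypes. Of all genes, the share called in OE was 5.87% from 0:00 to 4:00, 37.4% to 8:00, 33% to 12:00, 29.9% to 16:00, 26.4% to 20:00 and 8.32% to 0:00. In GL it was 9.09% from 0:00 to 4:00, 37.2% to 8:00, 36.2% to 12:00, 31.9% to 16:00, 26% to 20:00 and 10.8% to 0:00. The step from 0:00 to 4:00 sets the last sampling against the first.

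Genes related to these 5 were read from lists of partners and family members in the averaged contrast, where 26% of all tested genes were called. Of 4 NF-Y genes tested beside DTH8, OsHAP3A, another B subunit, was called higher in OE (log2 0.26, SE 0.08; adjusted p = 0.0170), and the other 3 had adjusted p values of 0.444 to 0.720. The 4 further casein kinase 1 and 2 genes had log2 differences from -0.16 (OsCKB1) to 0.10 (OsCKI1) and adjusted p values of 0.174 to 0.977. The 3 further JmjC genes had log2 differences from 0.06 (OsJMJ703) to 0.28 (OsJMJ706) and adjusted p values of 0.144 to 0.608. The median log2 differences of the 3 lists were 0.091, 0.035 and 0.074, beside -0.0028 over all genes tested. Among 6 light and clock input genes, OsPHYA, a phytochrome, was called higher (log2 0.29, SE 0.05) and Se5, a haem oxygenase needed for phytochrome, lower (log2 -0.43, SE 0.10).

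Other flowering genes included far larger differences than those of the 5 repressors. Of 10 tested promoters of flowering 3 were called higher and 4 lower in OE in the averaged contrast. Of all tested genes 14% were called higher and 12% lower there. Ehd1, the B-type response regulator on which several of these repressors act, averaged 0.177 CPM in OE and 8.90 CPM in GL (adjusted p = 1.1e-15), and the floral identity gene OsMADS14 averaged 0.594 CPM in OE and 326 CPM in GL (adjusted p = 3.2e-21). Of 5 other tested repressors, which are CONSTANS-like genes, 2 were called higher and 3 lower, the largest difference being that of OsCOL10 (log2 -1.43, SE 0.10; 193 CPM in OE and 319 CPM in GL). Hd1, one of those called higher in the mean of log2 levels (log2 0.43, SE 0.13), averaged 9.36 CPM in OE and 10.9 CPM in GL. The median log2 difference was 0.014 over the promoters and -0.24 over these repressors.

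The genes with the most similar pattern to each member were sought among 15899 others by Pearson correlation of log2 CPM over the 36 libraries, which share hours and genotypes. For DTH8 they were OS08G0410500 (r = 0.878) and OS01G0829000 (r = 0.864), and for OsMADS56 OS04G0281900 (r = 0.914) and OS02G0460200 (r = 0.909). For Hd6 they were OS01G0150000 (r = 0.876) and OS12G0162100 (r = 0.874), for Hd16 OS03G0652100 (r = 0.750) and OS09G0565400 (r = 0.749), and for Se14 OS04G0691200 (r = 0.832) and OS02G0664700 (r = 0.826). Between the members themselves r ran from -0.535 for DTH8 with OsMADS56, which peak at different parts of the day, to 0.609 for OsMADS56 with Hd6, which both peak in the morning. These peak times are those on TMM-scaled CPM.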

How the data were processed

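Leaf RNA was sequenced in 36 libraries, 18 OE and 18 GL, grouped by title and sampling time into 12 groups of 3. TopHat2, Cufflinks, Cuffdiff and the build IRGSP-1.0 are named in the submitters' processing notes, without settings. The deposited count column holds expected counts that the authors rounded up: 99.8% of counts above 0 were at most 1 above the deposited normalised value over 1 factor per library. That normalised value, a scaled signal, was made by the authors and served here for this check alone. FPKM values are as the authors deposited them.

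Counts were tested with edgeR 4.0.16 (R 4.3.3): filterByExpr (minimum count 10, minimum total 15) left 21772 genes, TMM scaling, and a quasi-likelihood F test in 1 model of 12 groups with Benjamini-Hochberg adjustment over all genes (threshold 0.05). CPM are on TMM-scaled totals, except those of the leaf markers RbcS, Lhcb and Rubisco activase, which are on unscaled totals. The log2 CPM used a prior count of 1, and intervals are 95%. The 24 h cosine assumes its period, since 1 day was sampled. Single values of 3 against 3 series were compared by exact permutation. Alternatives were DESeq2 1.42.0, limma 3.58.1 on log2(FPKM + 1) and log2(FPKM + 0.1), other scaling, no filter, replicate blocks and leaving out libraries.

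Depth was 8065894 to 15769659 counts per library (median 12531717). No 2 replicates agreed within sampling noise, as repeat deposits of 1 library would (chi-square per gene 6.09 to 88.4 over 36 pairs). Whether a replicate number marks shared plants or a shared day is not stated. Of 52 gene names listed, a reference table of another assembly put 30 within 5 Mb of their identifier's position on its chromosome and lacked 19, Hd6 and Se14 among them, whose names therefore rest on the identifier alone. It contradicted 2 NF-Y names, which were dropped, and 1 identifier is not analysed here.

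The members and the lists of related genes were chosen with earlier results of these data known. Named besides the members were OsPRR37, OsMADS50, up to 4 called genes of each list by smallest adjusted p, and the 2 genes most like each member with a mean log2 CPM of at least 1. OsCOL10, Hd1 and the genes at the ends of a list's range were singled out after their values were seen.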

Additional observations from a re-analysis of the deposited data

Results flagged for a closer look

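DTH8 differed between OE and GL by an amount that depended on the hour. The genotype by hour interaction had an adjusted p of 0.0313 (edgeR), with OE minus GL at 0.65 log2 units at 8:00 and -0.76 at 16:00. At 8:00 all 3 OE libraries were above the GL libraries, and at 16:00 all 3 were below them. The libraries stood apart in 21.8% of all genes at 8:00 and in 24.2% at 16:00. The 8:00 difference was not called (edgeR, adjusted p = 0.0587). The interaction call was lost without replicate number 2 or 3, and in 7 of 36 fits with a single library removed. The test of a rhythm difference did not call DTH8 (edgeR, adjusted p = 0.501).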

How the results depend on the processing

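The averaged fall of OsMADS56 kept its call with RLE scaling, no filter, DESeq2, limma on FPKM at either pseudocount and a replicate block as a fixed term. It was not called in voom with a random replicate block, 1 level per genotype and number (log2 -0.18, adjusted p = 0.169); that fit called 2209 of all genes, against 5662 in edgeR and 5347 in voom with no replicate block, a setting added after the data were seen. The fixed replicate block called 7153. Libraries with the same number in OE and GL deviated together at r of 0.054 to 0.482 over 18 pairs, 15 of them over 0.1. Since not every pair was over 0.1 and no label ties the numbers to plants or days, the block was not made the main result; 28 of 36 libraries were most like their own number, a hint from the data, not the design, that libraries of a number share some variation. Leaving out each replicate number in turn, the OsMADS56 difference ran from -0.23 to -0.14.

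Single-hour calls of the 5 genes numbered 2 in place of 1 with the fixed replicate block, limma on log2(FPKM + 0.1) and DESeq2, DTH8 at 8:00 being added each time. They ran from 0 to 2 when a library or a replicate number was left out. Members called in the interaction then ran from 0 to 1, over the day from 1 to 3 in OE and 3 to 5 in GL, by the cosine from 1 to 2 in OE and 3 to 5 in GL, and between consecutive hours from 4 to 13. Calls over all genes also depended on the replicate number left out: without numbers 1, 2 and 3 they were 6796, 2272 and 2814 in the average, and 3896, 151 and 124 at 16:00, against 1722. The interaction called 409 genes in edgeR, 1040 in DESeq2, 1022 with the fixed replicate block, and 1615, 7 and 6 without numbers 1, 2 and 3. No filter on low counts ended the call of Hd6 over the day in OE (adjusted p = 0.0910). The causes were not tested. No called value of the 5 genes changed direction under the settings run; 105 uncalled values did, 31 of them averaged differences. An exact permutation test of 3 against 3 cannot go below p = 0.1. No series comparison, nor the OsMADS50 to OsMADS56 ratio, could therefore gain or lose a call at 0.05. From log2 CPM to log2(FPKM + 1), OE minus GL of the series means changed sign for Hd6 (-0.033 to 0.025) and Se14 (0.007 to -0.041). These series values are not among the 105.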
